A study of Mus musculus with 8 samples.

Results

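The integrin and laminin genes of the mouse form a set of 36 protein-coding genes, of 21951 in the GENCODE M21 annotation, with 26 integrin subunits and 10 laminin chains, listed by gene name. A peak was counted for a member where the nearest transcription start site (TSS) of a protein-coding gene was the member's own, or where the peak lay within 10 kb of the gene body. By this rule 75 of the 15736 differentially accessible peaks belonged to members. Of these, 64 were gained (higher in the knockout hearts) and 11 were lost (higher in the control hearts). The gained share was 85.3%, close to the 82.6% of all listed peaks. At least 1 gained peak was found for 22 members (61.1%), beside 37.4% of all protein-coding genes and 49.1% of those of similar length. At least 1 lost peak was found for 10 (27.8%), beside 10.8% and 16.0%. *Itga6*, which encodes a laminin-binding integrin subunit, had 9 gained peaks, the most of any member by this rule (3 of them within 10 kb of the gene body, where *Lama3* had 7), and *Itgb1*, which encodes the partner subunit shared by many integrins, had 2 lost peaks and no gained one.

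Integrins are cell surface receptors made of an alpha and a beta subunit, which bind the extracellular matrix or other cells on the outside and connect to the actin cytoskeleton through adaptor proteins on the inside. Laminins are trimers of an alpha, a beta and a gamma chain, and they are the main building blocks of the basement membrane, the sheet of matrix that surrounds cardiomyocytes and underlies the endocardium and the epicardium. In muscle cells, integrins with the beta1 subunit bind laminin at the cell surface and anchor the contractile apparatus to the matrix.

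The assay was ATAC-seq, where a transposase cuts and tags accessible DNA, on whole E10.5 mouse hearts. The *Chd4-CMko* genotype lacks CHD4, the remodeling ATPase of the NuRD complex, in cardiomyocytes. The study bred it from floxed *Chd4* alleles and a *Tnnt2* Cre driver, which acts in cardiomyocytes, so the endocardial, epicardial and blood cells of these hearts should keep *Chd4*. The control hearts are labelled WT and the study calls its controls littermates. For E10.5 sections it gives a cross of *Chd4* fl/fl females with *Tnnt2* Cre/+; *Chd4* fl/+ males, from which every embryo inherits at least 1 floxed allele, but the alleles of the control samples in these lists are not given in the sources used here. There were 4 samples of each genotype, each from pooled hearts (3 hearts a sample at this stage by the design text and the study's methods, although the sample protocol gives 4) and from 40000 viable cells.

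The data are 2 lists of peaks, with 12991 gained and 2745 lost, and each peak carries 1 deposited score. Scores of gained peaks ran from 19.0 to 696.5 with a median of 62.5, and those of lost peaks from 14.3 to 1139.0 with a median of 36.8. The scale of the score is not given in the sources used here, so scores were compared within a list only. The lists hold no value per sample, no fold change, no read depth and no measure of *Chd4* itself, so no value below carries a replicate error and no difference was tested against replicate spread. Peaks that did not differ between the genotypes are not in the lists. A gene without a listed peak may therefore have open or closed chromatin in both genotypes. In whole hearts, a change in the share of a cell type and a change in accessibility within its cells cannot be told apart.

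The sequences below are those of the gained peaks with the highest score in each functional group of members, read from the plus strand of GRCm38 (mm10), and each is 151 bases long. For the leukocyte integrins the peak downstream of *Itgb2* is shown, because those with higher scores, next to *Itgb7* and over the start of *Itgb2*, overlap untranslated regions. They show that these gained peaks had no sequence feature in common among those searched. Capitals mark a match to a motif or 1 copy of a tandem repeat unit.
Itga6, gained, chr2:71727309-71727459: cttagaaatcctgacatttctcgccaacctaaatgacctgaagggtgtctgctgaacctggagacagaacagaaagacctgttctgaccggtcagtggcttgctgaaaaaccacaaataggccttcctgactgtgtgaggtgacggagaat
Itga11, gained, chr9:62763615-62763765: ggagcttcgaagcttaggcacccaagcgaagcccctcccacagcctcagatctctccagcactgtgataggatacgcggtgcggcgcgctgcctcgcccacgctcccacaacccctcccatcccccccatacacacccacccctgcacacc
Itga5, gained, chr15:103359226-103359376: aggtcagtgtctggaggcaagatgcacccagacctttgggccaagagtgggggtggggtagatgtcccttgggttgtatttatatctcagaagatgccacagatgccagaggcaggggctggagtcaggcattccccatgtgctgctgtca
Itga9, gained, chr9:118833531-118833681: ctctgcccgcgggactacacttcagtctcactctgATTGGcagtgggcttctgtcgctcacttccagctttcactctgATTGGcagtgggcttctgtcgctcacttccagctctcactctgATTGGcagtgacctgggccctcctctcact
Itgb2, gained, chr10:77569611-77569761: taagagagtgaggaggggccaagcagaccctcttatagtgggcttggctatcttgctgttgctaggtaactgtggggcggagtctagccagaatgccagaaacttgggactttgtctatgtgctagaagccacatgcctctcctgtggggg

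The highest-scoring gained peaks of the laminin alpha, beta and gamma chains, shown in the same way, belonged to *Lama5*, *Lamb3* and *Lamc3*. The *Lamb3* peak lay 409 bp from the start of *Traf3ip3* and belonged to *Lamb3* only by the 10 kb window. The *Lamc3* peak is built from a repeat, and the capitals mark 1 unit of 36 bases, at which shift 73.0% of the bases of the peak matched.
Lama5, gained, chr2:180222366-180222516: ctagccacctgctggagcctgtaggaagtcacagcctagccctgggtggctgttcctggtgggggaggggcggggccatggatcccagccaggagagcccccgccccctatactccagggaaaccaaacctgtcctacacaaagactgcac
Lamb3, gained, chr1:193198380-193198530: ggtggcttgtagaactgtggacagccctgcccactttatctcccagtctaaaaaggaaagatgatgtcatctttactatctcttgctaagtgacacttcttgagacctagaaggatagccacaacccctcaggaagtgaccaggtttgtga
Lamc3, gained, chr2:31902047-31902197: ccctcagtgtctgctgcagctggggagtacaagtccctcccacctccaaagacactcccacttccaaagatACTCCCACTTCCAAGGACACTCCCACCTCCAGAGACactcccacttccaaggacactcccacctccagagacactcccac

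The lost peaks shown next are those of *Lamc1* and *Itga11*, with high scores for the lost list, and those with a gained peak of the same gene within 10 kb. The ATTGG string in capitals in the *Itga11* peak is the NFY motif CCAAT on the minus strand.
Lamc1, lost, chr1:153265180-153265330: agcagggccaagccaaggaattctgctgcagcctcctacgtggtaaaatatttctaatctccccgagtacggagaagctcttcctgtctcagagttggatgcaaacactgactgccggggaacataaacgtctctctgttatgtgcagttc
Itga11, lost, chr9:62613142-62613292: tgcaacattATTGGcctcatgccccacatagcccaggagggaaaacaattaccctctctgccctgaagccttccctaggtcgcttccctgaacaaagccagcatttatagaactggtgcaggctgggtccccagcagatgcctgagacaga
Itga1 and Itga2, lost, chr13:114972033-114972183: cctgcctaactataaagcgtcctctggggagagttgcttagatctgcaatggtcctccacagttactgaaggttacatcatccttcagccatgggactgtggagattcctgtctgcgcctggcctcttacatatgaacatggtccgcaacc
Itga9, lost, chr9:118684481-118684631: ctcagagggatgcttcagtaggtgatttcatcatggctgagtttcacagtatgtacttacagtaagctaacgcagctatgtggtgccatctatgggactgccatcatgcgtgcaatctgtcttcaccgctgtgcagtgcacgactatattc
Itgad, lost, chr7:128187682-128187832: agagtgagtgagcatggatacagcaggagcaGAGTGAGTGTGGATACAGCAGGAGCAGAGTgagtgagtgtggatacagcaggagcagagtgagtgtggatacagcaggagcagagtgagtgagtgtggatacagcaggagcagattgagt

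The gained peak that lay next to the lost peak of *Itgad* is shown for comparison with it. Capitals in both mark 1 unit of the 30-base repeat found in the gained and the lost peak.
Itgad, gained, chr7:128186768-128186918: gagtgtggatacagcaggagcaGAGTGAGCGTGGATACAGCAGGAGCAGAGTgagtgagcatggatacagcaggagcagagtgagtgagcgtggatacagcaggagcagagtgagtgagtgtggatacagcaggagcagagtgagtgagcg

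A last set was chosen after their motifs were seen, to show member peaks with motifs of cardiac transcription factors or of the insulator protein CTCF. The *Lama5* peak holds a CTCF match (CCCCCTAGTGG) and an NFY match, and the *Lamb1* peak holds a GATA match and a MEF2 match. Both *Itga6* peaks hold a MEF2 match, and the first of them also holds the NKX2-5 motif CAAGTG on the minus strand.
Lama5, gained, chr2:180227705-180227855: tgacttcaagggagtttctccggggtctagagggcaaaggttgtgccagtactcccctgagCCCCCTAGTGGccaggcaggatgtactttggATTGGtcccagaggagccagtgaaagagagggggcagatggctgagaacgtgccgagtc
Lamb1, gained, chr12:31279761-31279911: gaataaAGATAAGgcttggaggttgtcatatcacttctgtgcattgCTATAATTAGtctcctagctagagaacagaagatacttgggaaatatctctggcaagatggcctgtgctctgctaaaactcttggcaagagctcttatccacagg
Itga6, gained, chr2:71669477-71669627: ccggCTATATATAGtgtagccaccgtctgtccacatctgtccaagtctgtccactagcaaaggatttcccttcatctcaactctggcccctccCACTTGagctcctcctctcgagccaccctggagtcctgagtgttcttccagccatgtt
Itga6, gained, chr2:71671050-71671200: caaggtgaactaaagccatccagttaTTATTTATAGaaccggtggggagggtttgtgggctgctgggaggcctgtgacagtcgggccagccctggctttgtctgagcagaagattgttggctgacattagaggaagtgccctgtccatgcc

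The first comparison asked how often members had a peak that differed between the genotypes, beside all protein-coding genes under the same rule. Gained peaks were found for 22 of 36 members (61.1%), beside 37.4% of all protein-coding genes. Lost peaks were found for 10 of 36 members (27.8%), beside 10.8%. Members are long genes, with a median length of 66.9 kb against 17.4 kb for all protein-coding genes (the shares were therefore also taken over genes of like length). Among the 13576 genes within the range of member lengths, from 10.8 to 640 kb, 45.1% had a gained peak and 14.3% a lost peak. Among the 4838 genes within the interquartile range of member lengths, from 35.0 to 121 kb, 49.1% had a gained peak and 16.0% a lost peak, and of the 18 members in that range 12 (66.7%) had a gained and 7 (38.9%) a lost peak. In both length ranges the members' shares stayed above those of all genes in the range. No interval was taken for these shares of genes, and the differences were not tested. *Itga1* and *Itga2* share most of their peaks, so they are not independent counts. Per length of gene body with 10 kb on either side, members had 11.1 gained and 2.09 lost peaks per Mb, and all protein-coding genes had 7.26 and 1.33.

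**Figure D1:**
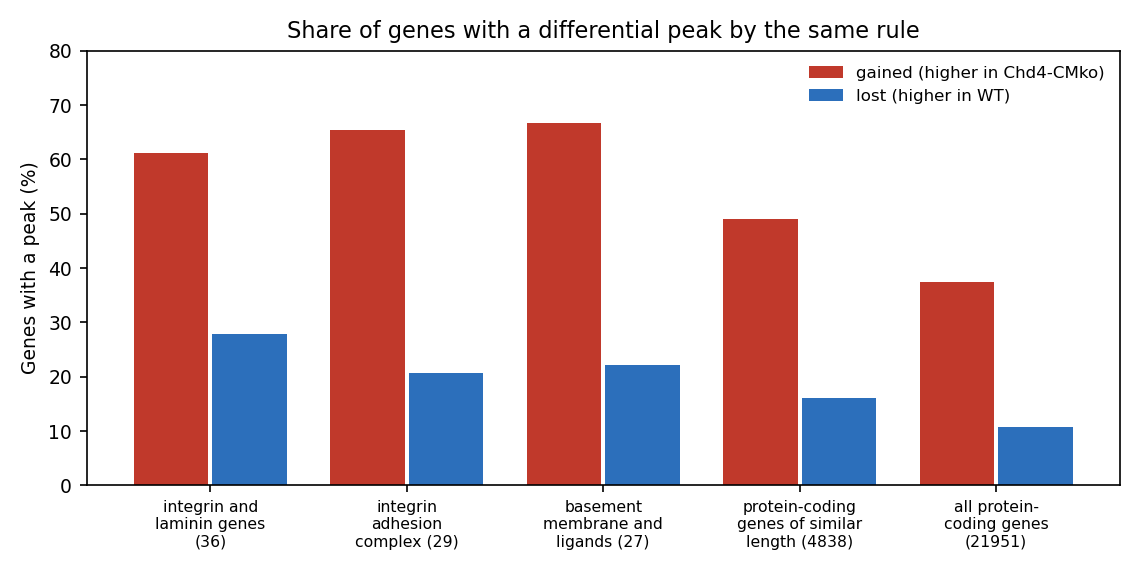
Bars give the percentage of genes with at least 1 gained peak (red) and at least 1 lost peak (blue) by the same rule, with the number of genes in each list in parentheses. Genes of similar length are those within the interquartile range of member lengths. The red bar of the integrin and laminin genes stands at 61.1% and that of genes of similar length at 49.1%.

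Several peaks often lay at 1 gene. At least 3 gained peaks were counted for 12 members (33.3%) and for 7.81% of all protein-coding genes, and at least 5 for 6 members (16.7%) and for 2.31%. Within the interquartile range of member lengths, at least 3 were counted for 7 of 18 members (38.9%) and 11.8% of genes, and at least 5 for 2 members (11.1%) and 2.69%. The 6 members with at least 5 were *Itga5*, *Itga6*, *Itga9*, *Itga11*, *Lama3* and *Lamb3*. Both a gained and a lost peak were found for *Itga1*, *Itga2*, *Itga9*, *Itga11*, *Itgad* and *Lamc1*. The share of all protein-coding genes with both was not counted. Only lost peaks were found for *Itgae*, *Itgav*, *Itgb1* and *Lama1*. By this rule neither was found for 10 members, which were *Itga2b*, *Itga4*, *Itga10*, *Itgal*, *Itgam*, *Itgax*, *Itgb4*, *Lama2*, *Lama4* and *Lamb2*. The members without a peak had a median length of 36.3 kb, shorter than the 63.4 kb of members with gained peaks only, although *Lama2*, at 640 kb, was the longest member.

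The balance of gained and lost peaks at members was close to that of the lists. Of the 75 member peaks 85.3% were gained (95% Wilson interval 75.6 to 91.6), and of all listed peaks 82.6% were gained (82.0 to 83.1). These intervals cover counting error alone. Integrins and laminins had similar shares of genes with a gained peak, with 16 of 26 integrins and 6 of 10 laminin chains. Lost peaks were found for 8 of 26 integrins and 2 of 10 laminin chains.

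**Figure D2:**
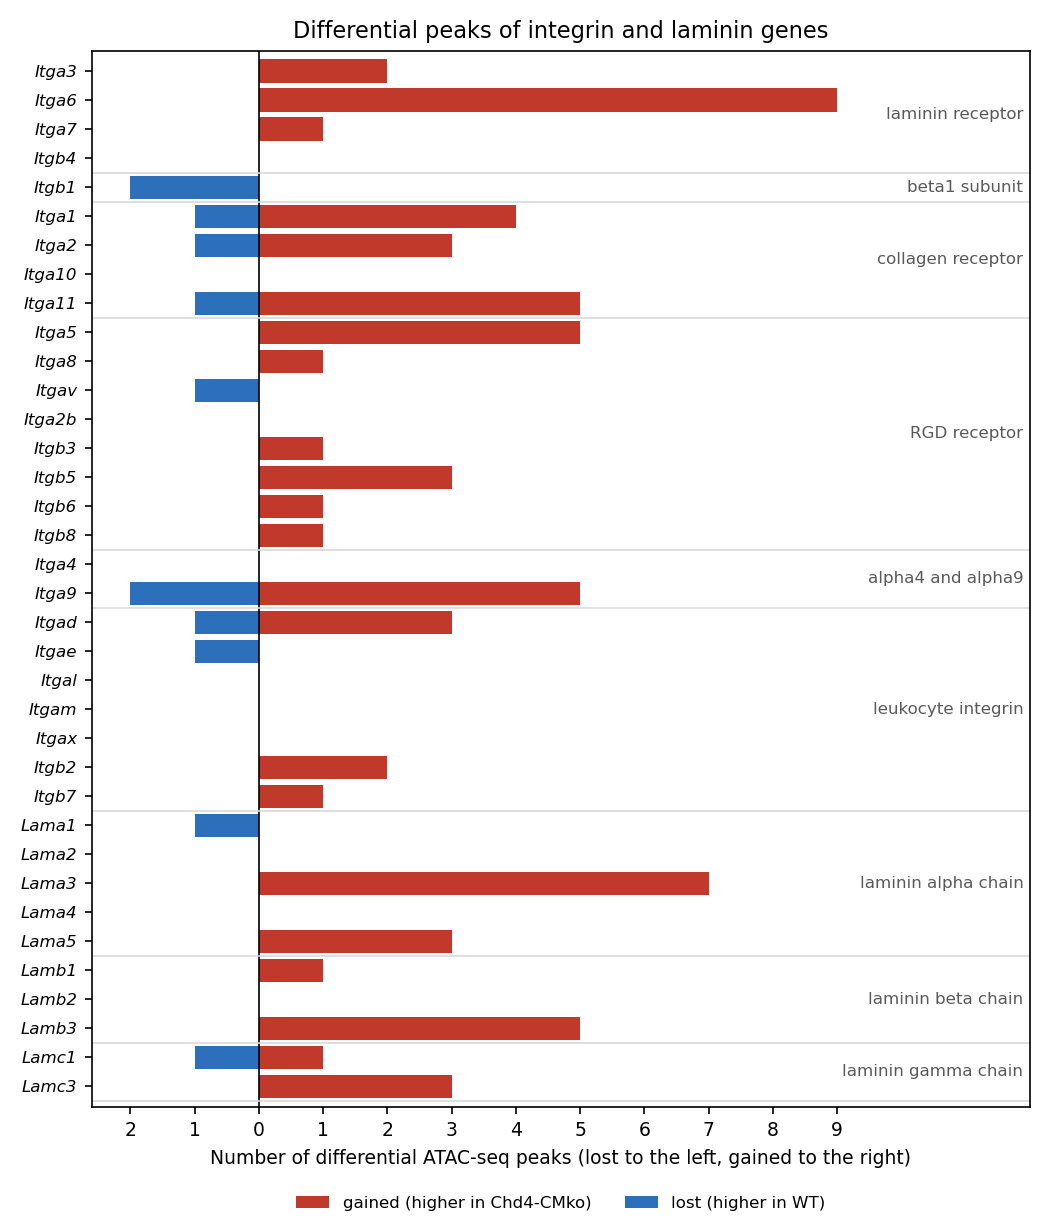
Each row is 1 member, ordered by functional group. The horizontal axis gives the number of gained peaks to the right (red) and of lost peaks to the left (blue). *Itga6* has the longest red bar, with 9 peaks, and *Itgb1* and *Itga9* the longest blue bars, with 2 each.

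The laminin-binding integrins are the alpha3, alpha6 and alpha7 subunits, which pair with beta1, and the beta4 subunit, which pairs with alpha6. Gained peaks were found for 3 of these 4 genes, 12 in all, and none had a lost peak. The 9 gained peaks of *Itga6* (gene at chr2:71745616-71858416) spanned 162 kb, and 8 of them lay upstream of its first coding start site, between 22.3 and 134 kb away. The highest scores of *Itga6* were 267.5, at the 96.1st percentile of the gained list and 59.5 kb upstream of that coding start, and 173.0, at 35.3 kb upstream, and the next was 76.5, at 95.9 kb. The gene start given above is that of a noncoding transcript. From it, the centre of the peak with a score of 267.5 lay 18.2 kb upstream. That of the peak with a score of 173.0 lay 5.94 kb downstream, inside the annotated gene. The remaining 6 scores lay between 53.0 and 68.0, around the median of the gained list, so 2 of the 9 peaks stood well above the rest. *Itga3* had 2 gained peaks, both with a score of 58.0, one in exon 15 of 26 and one 11.6 kb upstream. *Itga7*, whose product is the main laminin-binding alpha subunit of mature muscle, had 1 gained peak with a score of 77.5 in intron 13. *Itgb4*, a subunit best known from the hemidesmosomes of epithelia, had none.

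The beta1 subunit, encoded by *Itgb1*, is the common partner of the laminin and collagen receptors. The gene (chr8:128685654-128733200) had 2 lost peaks and no gained peak. One lost peak, with a score of 38.8, lay in intron 14, at 614 bp from the start of a short coding transcript (Itgb1-204), and the other, with a score of 27.8, lay 76.5 kb upstream of the gene. Both scores were close to or below the median of the lost list of 36.8.

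Collagen is bound by the alpha1, alpha2, alpha10 and alpha11 subunits, all in complex with beta1. Gained and lost peaks were found together for 3 of these 4 genes by the full rule. With the gene body alone, *Itga2* and *Itga11* had no lost peak. *Itga1* and *Itga2* are neighbours on chromosome 13 and shared 3 gained peaks, with scores of 35.0, 60 and 55.0, and 1 lost peak with a score of 25.3. These 4 peaks lay inside *Itga1*, in introns 12 to 23, but the nearest start site was that of *Itga2*, 39.9 to 63.7 kb away, so the rule gave them to both genes. *Itga1* had a further gained peak, with a score of 45.5, which lay 374 kb upstream. *Itga11*, a fibrillar collagen receptor of mesenchymal cells, had 5 gained peaks and 1 lost peak. A gained peak in intron 18 of 29 had a score of 205.5, and its nearest start site was that of the neighbour *Fem1b*. The other 4 gained peaks, with scores of 46.0 to 87.5, lay between 28.1 and 55.4 kb upstream of *Itga11*, and the lost peak, with a score of 77.8 at the 91.9th percentile of the lost list, lay beyond them at 64.5 kb. The gained peak with a score of 87.5 was a tandem repeat, with 79.0% of bases matching at a shift of 32 bases. *Itga10*, a collagen receptor of cartilage, had no listed peak.

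The RGD receptors recognise a short tripeptide in fibronectin, vitronectin and other ligands. Gained peaks were found for 6 of these 8 genes and a lost peak for *Itgav*. *Itga5* (chr15:103344286-103366763), the fibronectin receptor subunit, had 5 gained peaks with scores of 214.5 and 183.0 in introns 1 and 2, 205.0 and 132.0 downstream of the gene, and 87.5 at 12.1 kb upstream. The peaks in introns 1 and 2 were 199 bp apart. Both downstream peaks lay at the start of the neighbouring gene *Zfp385a*, so they belonged to *Itga5* by the 10 kb window and not by the nearest start site. *Itgb5*, which pairs with alphav, had 3 gained peaks, with a score of 96.5 in intron 5, 145.5 in intron 10 and 138.0 in intron 11. *Itgb3*, the beta subunit of the platelet fibrinogen receptor that also pairs with alphav, had 1 gained peak with a score of 85.5 in intron 2. The gained peaks of *Itga8*, *Itgb6* and *Itgb8* had scores of 34.0, 25 and 45.5, all under the median of the gained list. They lay 15.5 kb upstream of *Itga8*, in intron 1 of *Itgb6* and downstream of *Itgb8*, at 104 kb from its start. Of the *Itgb8* peak 93.4% was repeat-masked, and it was not given to *Itgb8* with the gene body alone, start sites of any gene or the 100 kb limit. *Itgav* had 1 lost peak, with a score of 37.5, in intron 12. *Itga2b*, the platelet-specific partner of beta3, had no listed peak.

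The alpha4 and alpha9 subunits bind fibronectin variants, VCAM1 and tenascin. *Itga9* had 5 gained and 2 lost peaks, all between introns 13 and 19 of the gene, which spans 294 kb. Of its gained peaks 4 had scores between 90.5 and 98.5. The peak with a score of 90.5 was 81.5% repeat-masked and a tandem repeat, with 80.5% of bases matching at a shift of 33 bases. The fifth gained peak had a score of 30. This low-scoring gained peak lay 1588 bp from a lost peak with a score of 37.2 in the same intron, and the other lost peak had a score of 48.9. The gained peak with a score of 98.5 holds the NFY string at 3 places, as its sequence shows, at bases 36, 79 and 122 of the peak. The spacing of 43 bases is also the shift at which the sequence best matched itself. *Itga4* had no listed peak.

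The leukocyte integrins are the alpha subunits of white blood cells (*Itgad*, *Itgae*, *Itgal*, *Itgam*, *Itgax*) and their partners *Itgb2* and *Itgb7*. Gained peaks were found for 3 of these 7 genes and lost peaks for 2. *Itgb2* had a gained peak with a score of 55.0 that covered its start site, and another, with a score of 53.0 and 82.1% of its bases repeat-masked, downstream of the gene. The gained peak of *Itgb7* had a score of 101.0 and lay 3.64 kb upstream. *Itgad* had gained peaks with scores of 22.5, 21 and 48.0, in introns 11 and 21 and exon 27, and a lost peak with a score of 48.7 in intron 11. The first of these gained peaks was 763 bp from the lost peak, and both consist of the repeat shown above. *Itgae* had 1 lost peak with a score of 43.6, and all of its bases were repeat-masked. Among 9 leukocyte marker genes 3 had a gained peak (*Spi1*, *Csf1r* and *Laptm5*) and 1 a lost peak (*Ptprc*), and among 7 platelet and megakaryocyte genes 2 had a gained and 1 a lost peak. These are 33.3% and 11.1% of the leukocyte markers, near the 37.4% and 10.8% of all protein-coding genes. The part of blood cells in the peaks of these integrins was not tested.

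The laminin alpha chains carry the main receptor-binding domains of the trimer. Gained peaks were found for 2 of 5 genes and a lost peak for *Lama1*. *Lama5* (chr2:180176373-180225859), a chain of most mature basement membranes, had a gained peak with a score of 279.5 in intron 1, the highest score of any member peak and at the 96.7th percentile of the gained list. A gained peak with a score of 245.0 lay 1.85 kb upstream of its start, and one with a score of 71.5 lay in intron 2. *Lama3*, an epithelial chain, had 7 gained peaks over 216 kb, and the highest scores were 99.0 in exon 33, 87.0 in intron 42 and 43.5 in intron 1. The other 4 scores of *Lama3* were between 28 and 40, under the median of the gained list.

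*Lama1* (chr17:67697259-67822647), the chain of early embryonic laminin, had the lost peak with the highest score of any member, 220.1, at the 99.4th percentile of the lost list. It lay in intron 5, and 92.7% of its bases were repeat-masked. It was also a tandem repeat, with 95.2% of bases matching at a shift of 6 bases. Reads from repeats can come from many places in the genome, and how they were treated is not given in the sources used here. *Lama2* and *Lama4*, which encode the alpha chains of skeletal muscle, heart and vessel basement membranes, had no listed peak.

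Among the beta chains, *Lamb1* and *Lamb3* had gained peaks and no lost peak, and *Lamb2*, a chain of the neuromuscular junction and vessels, had neither. *Lamb1*, which with *Lama1* and *Lamc1* makes the laminin trimer of the early embryo, had 1 gained peak with a score of 37.0 in intron 6, the one with a GATA and a MEF2 match. *Lamb3*, a chain of the epithelial laminin that contains *Lama3*, had 5 gained peaks, of which 3 were within the gene body and its start and 2 were upstream. The peak over the start of its main transcript had a score of 49.0, and those in exon 17 and intron 18 had scores of 75.5 and 82.5. The upstream peaks, with scores of 136.0 and 31.0, were nearest to the start of *Traf3ip3*, at 409 and 2284 bp.

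Both gamma chains had gained peaks. *Lamc1*, the gamma chain of most laminins, had a gained peak with a score of 39.0 and a lost peak with a score of 78.9, both in its long first intron. The gained peak was 7.01 kb from the start, and the lost peak was at the 92.2nd percentile of the lost list. *Lamc3* had 3 gained peaks, with scores of 245.5 in intron 3 (the repeat shown above), 133.5 in exon 6 and 35.0 at 10.6 kb upstream.

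**Figure D3:**
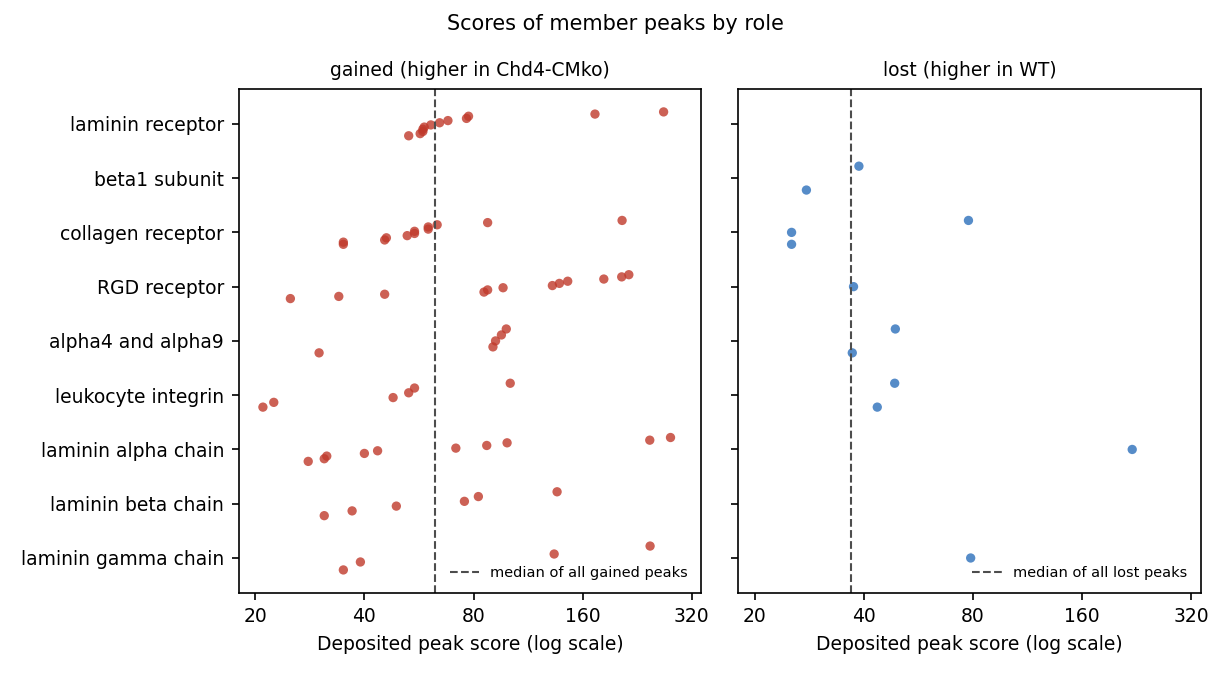
Each point is 1 peak of 1 member, with its deposited score on a log axis and functional groups in rows, for gained peaks on the left and lost peaks on the right. Points are shifted up and down within a row for display, and the peaks shared by *Itga1* and *Itga2* appear once for each gene. The dashed lines mark the list medians of 62.5 and 36.8. Member points lie on both sides of the line in both lists.

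Member peaks were spread over the score range of their lists. Of the 64 gained peaks 33 (51.6%) were at or above the list median, and of the 11 lost peaks 9 (81.8%) were, 3 of these with scores of 37.2, 37.5 and 38.8 just above the median of 36.8. Member peaks were mostly distant from start sites. The distance from a gained peak to the nearest coding start of its member had a median of 19.1 kb, and 2 peaks covered such a start (*Itgb2* and *Lamb3*). A distance within 3 kb, these included, was found for 6 gained peaks, 10 were at 3 to 10 kb, 32 at 10 to 50 kb and 16 farther away. The median for the 11 lost peaks was 30.2 kb, and only the peak of *Itgb1* named above was within 3 kb. With any annotated transcript counted, gained peaks within 3 kb were found for 10 members (27.8%), beside 12.4% of all protein-coding genes, and lost peaks for 2 (5.56%), beside 1.24%. With coding transcripts alone, the numbers were 6 members (16.7%), beside 9.92%, and 1 member (2.78%), beside 0.815%.

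**Figure D4:**
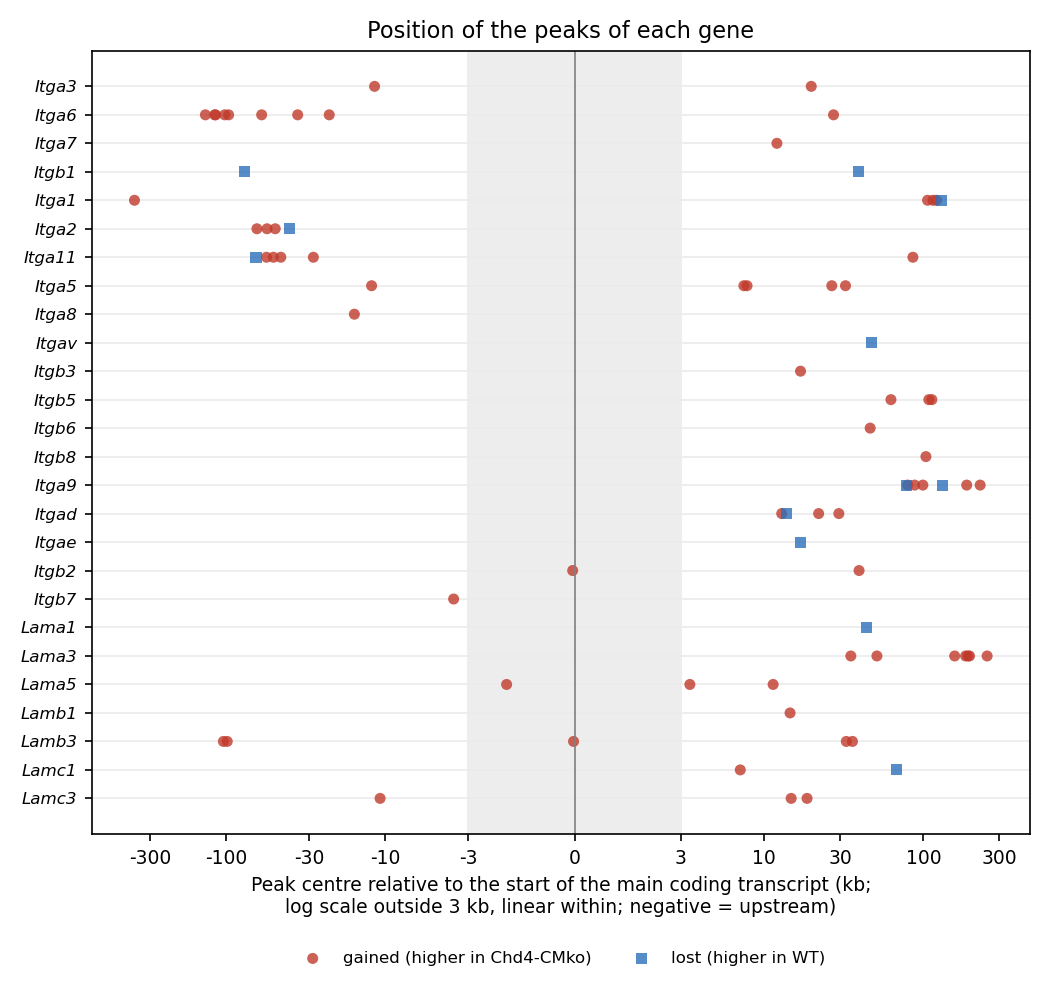
Each row is 1 of the 26 members with a peak, and each point is 1 gained peak (red circle) or lost peak (blue square). The horizontal axis gives the distance in kb of the peak centre from the start of the main coding transcript (the one with the longest coding sequence), negative upstream, on a log scale outside the shaded 3 kb and linear within it. *Itga6* has 8 points upstream, and *Itga9* and *Lama3* have all points downstream of the start.

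Relative to the main transcript of each member, 30 of the 64 gained peaks lay in introns, 8 in exons, 21 upstream and 5 downstream, and of the 11 lost peaks 9 lay in introns and 2 upstream. When each peak was classed against all annotated genes, 32.8% of the gained member peaks (22.6 to 45.0) were within 3 kb of a start site of any gene, against 30.9% of all gained peaks. The share in introns was 34.4% (23.9 to 46.6) against 33.0%, and the share in intergenic regions 25% (16.0 to 36.8) against 32.1%. The GC content of gained member peaks was 55.6 ± 6.61% (SD over 64 peaks), near the 56.7 ± 8.55% of all gained peaks. Lost member peaks had 49.8 ± 2.75% (SD over 11 peaks) and all lost peaks 50.5 ± 5.85%. Gained member peaks were thus much like their list in GC content and in the share near start sites and in introns. Of the 11 lost member peaks 63.6% (35.4 to 84.8) were in introns, against 47.0% of all lost peaks, 18.2% (5.14 to 47.7) were intergenic, against 32.8%, and 18.2% were within 3 kb of a start site, against 16.8%. With 11 peaks these intervals of location are wide and include the shares of the list. Repeats were more frequent in lost member peaks. Of the 11, 3 (27.3%) were mostly repeat-masked, against 7.14% of all lost peaks, and 2 (18.2%) were tandem repeats, against 2.30%. Of gained member peaks 6.25% were mostly repeat-masked, against 10.2% of all gained peaks, and 6.25% were tandem repeats, against 2.22%.

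Motifs were counted as exact strings on both strands. The NFY motif (CCAAT) was found in 16 of 64 gained member peaks (25%, interval 16.0 to 36.8) and in 29.3% of all gained peaks, at *Itga3*, *Itga5*, *Itga6*, *Itga8*, *Itga9*, *Itga11*, *Itgb5*, *Itgb8*, *Lama3* and *Lama5*. The NKX2-5 motif (CAAGTG), for a homeodomain factor of cardiomyocytes, was found in 8 (12.5%, 6.47 to 22.8) and in 9.26% of all gained peaks, with 3 of the 8 at *Itga6*. The MEF2 motif, for a muscle transcription factor family, was found in 4 (6.25%, 2.46 to 15.0) and in 3.26%, in 2 peaks of *Itga6*, the peak of *Lamb1* and 1 peak shared by *Itga1* and *Itga2*. The TEAD motif (ACATTCC) was in 3 (4.69% against 3.76%), at *Itga1*, *Itga11* and *Itgad*, and the GATA motif (AGATAAG) in 2 (3.12% against 5.45%), at *Lama3* and *Lamb1*. The KLF motif (GGGTGTGGC or GGGCGTGGC) was in the *Lamb3* start peak, the ETS motif (ACAGGAAGT) in an *Itga6* peak, the AP-1 motif (TGANTCA) in the *Itgb3* peak and the CTCF motif in the *Lama5* peak. Each of these 4 was in 1.56% of gained member peaks, and in 4.60%, 0.839%, 5.08% and 0.285% of all gained peaks. The TBX motif (AGGTGTGA) was in 0 member peaks and in 1.28% of all gained peaks. All intervals of the member shares named here include the share of the whole list. Lost member peaks held NFY in 2 of 11 (*Itga11* and *Itgav*) and NKX2-5 in 2 (*Itgav* and *Itgb1*), and none of the other motifs. A string match describes the sequence and does not show that a factor was bound.

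The proteins that link integrins to the cytoskeleton, and the other ligands and basement membrane proteins, were counted by the same rule. Of 29 integrin adhesion complex genes 19 (65.5%) had a gained peak and 6 (20.7%) a lost peak, beside 61.1% and 27.8% of the integrin and laminin genes and 37.4% and 10.8% of all protein-coding genes. Their median length was 45.5 kb, and among genes of similar length to the members the shares were 49.1% and 16.0%. *Tns1*, which encodes the actin-binding adaptor tensin, had 8 gained peaks, *Src*, a tyrosine kinase of adhesion sites, had 6, and *Tln2*, which encodes a talin that activates integrins, had 5 gained and 1 lost. The highest score in this list was 653.0, for a peak of the tensin gene *Tns2* at 126 bp from a start site of the gene, followed by 447.5 for a *Src* peak at 158 bp and 402.5 for a *Tns1* peak at 54 bp. *Vcl*, which encodes vinculin, had 1 gained and 2 lost peaks, and *Lims1* had a lost peak alone. Of 27 basement membrane and ligand genes 18 (66.7%) had a gained and 6 (22.2%) a lost peak, with a median gene length of 60.1 kb and the same shares of all protein-coding genes to set them against. *Fn1*, which encodes fibronectin, the ligand of the alpha5 receptor, had 6 gained peaks with scores of 24.0 to 43.5 and 4 lost peaks with scores of 20.1 to 42.3. The 5 listed peaks of *Itga5* were all gained, but 2 of them lay at the start of *Zfp385a*.

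Peaks at marker genes of the cell types in the heart were counted in the same way. Gained peaks were found for 10 of 14 cardiomyocyte markers, 10 of 12 endothelial and endocardial markers, 5 of 9 epicardial markers and 1 of 9 erythroid markers. Lost peaks were found for 1, 3, 4 and 5 of them. Over all protein-coding genes the shares were 37.4% and 10.8%, and the marker lists differed in median gene length, from 4.61 kb for the erythroid to 56.5 kb for the endothelial and endocardial genes. Of 12 fast skeletal muscle genes 11 had a gained and 0 a lost peak. The lists cannot test the labelled tissue, since a marker open in both genotypes is not in them. From which cell type the member peaks came was not tested.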

How the data were processed

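ATAC-seq libraries of E10.5 mouse hearts (4 *Chd4-CMko*, 4 WT) were aligned by the authors to mm10 with BWA-MEM, and peaks were called with HOMER 4.10.3 and annotated with ChIP-Seeker 1.20.0 per the labels. The deposited score of each peak, made by the authors, was used as given. A fold-change limit defined the lists. Read filters, duplicate removal, the Tn5 shift and how samples were combined are not given in the sources used here. The study's methods state a sequencing depth per sample, but the files hold no read counts, so the precision of single peaks is unknown.

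Peaks were assigned to genes of GENCODE M21 (GRCm38) with Python 3.11.15, pandas 2.3.3 and pysam 0.24.0, by the nearest protein-coding TSS or a 10 kb window around the gene body. Shares were given with 95% Wilson intervals. The assignment, motif and repeat searches were tested on simulated data. A tandem repeat was called where at least 70% of bases matched at a shift of 2 to 60 bases. No statistical test was made, since no file holds values per sample. The members, lists and motifs were chosen with earlier results of these data known. All 36 members were accounted for, and peaks were described by functional group, with the 3 highest scores where a member had more than 5. The alternatives changed the assignment window, the start sites, the score limit and the motif mismatch. The sequences of some member peaks are not reported here.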

Additional observations from a re-analysis of the deposited data

How the results depend on the processing

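No paired analysis was possible because the lists hold no value per sample, and leaving out a replicate was not possible for the same reason. With the gained and lost lists each limited to peaks at or above their median score, 12 members had a gained peak, 33 gained peaks belonged to members and 8 integrins had a gained peak. The share of all protein-coding genes under this score limit was not taken, so the count of members has no background beside it. With peaks within 3 kb of a start site of a member alone, 10 members had a gained and 2 a lost peak, from 11 gained and 2 lost peaks, at 7 integrins and 3 laminin chains. With start sites of coding transcripts alone in that 3 kb window, an alternative chosen after seeing the data, 6 members had a gained and 1 a lost peak, from 6 gained and 1 lost peaks, at 4 integrins and 2 laminin chains. The 8 counts and shares over the whole set stayed within 1.5 times of those reported under the wider window, the 100 kb limit, the nearest start site alone, the gene body alone, start sites of any gene and a common score limit. The same held for start sites of coding transcripts, and without tandem repeats (8 members with a lost peak) or repeat-masked peaks (7), which were chosen after seeing the data. Counts of single genes moved more: with the gene body alone *Itga6* had 3 gained peaks, *Itga11* 1 and *Itga2* 0. Some members without a listed peak had a gained one under other settings. These were *Itga2b* and *Itgal* with the wider window, and *Itga4* with start sites of coding transcripts. With 1 mismatch allowed, 14 of 20 motif shares moved out of their 95% interval, and in gained member peaks NFY rose to 93.8%, NKX2-5 to 78.1%, AP-1 to 35.9%, TEAD to 34.4%, GATA to 29.7%, KLF to 25%, TBX to 17.2%, CTCF to 10.9% and ETS to 9.38%. MEF2 rose to 12.5% and, in lost peaks, NKX2-5 to 45.5%, both within their intervals. Among peaks at or above the median score KLF, GATA and ETS matches fell to 0. The files hold no read counts, and the lists do not show how near the limit any peak lay.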
